A study of Mus musculus with 6 samples.

Results

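BAF250A knockdown was compared with a scrambled shRNA in C2C12 cells, an immortalized mouse myoblast line that fuses into contractile myotubes when serum is withdrawn. The comparison rests on 4 of the 6 libraries of the series: 2 from cells carrying a stably transfected shRNA against BAF250A and 2 from cells carrying a stably transfected non-targeting scrambled shRNA. All rows of the authors' differential expression table for this contrast were used, which are 27179 genes, of which 20817 had reads in these 4 libraries and 16450 received an adjusted p. All cells were harvested 48 h after differentiation began, in 2% horse serum with 2 µg/ml insulin. The other 2 libraries carry a stably transfected shRNA against BRD9 and were harvested under the same conditions, and they are used here only to show where the BAF250A cells differ from another knockdown. A construct against BAF180 named in the protocol is not analysed here. The labels do not say how many hairpins or clones each stable line holds, or whether the letters A and B mark separate cultures, so each p-value rests on the spread of 2 libraries in a group, and that spread may be technical.

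BAF250A, the product of Arid1a, is the large ARID-domain subunit that sets apart the canonical BAF form of the SWI/SNF chromatin remodeller, an ATP-driven machine that moves nucleosomes and opens enhancers. BRD9 belongs to the non-canonical form of the same remodeller. In differentiating myoblasts the transcription factor MYOD recruits SWI/SNF to muscle genes, MYOG and the MEF2 factors then carry the programme forward, and the cells leave the cell cycle, fuse and build sarcomeres. Myoblasts share a mesenchymal origin with fibroblasts, tendon cells and smooth muscle, whose matrix and contractile genes are part of the description below.

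The values of single libraries are normalized counts, that is reads divided by the library's size factor, and they were recovered from the authors' deposited tables for 20908 of 20990 genes with reads (99.6%). Library letters could not be recovered, so libraries are numbered within a group by size factor and each pair of levels is given in that order. The scrambled libraries held 45317669 and 41781380 recovered reads over 19255 and 18651 genes, and the BAF250A libraries 27755177 and 28002975 over 15826 and 15456 genes. The scrambled pair stood apart from each other. Their log2 difference had an SD of 0.992 over 11597 genes with a mean of 100 or more, against 0.365 within the BAF250A pair and 0.715 within the BRD9 pair. The difference followed transcript length: the median log2 ratio of scrambled library 2 over library 1 was 0.93 in the shortest quintile of genes and -1.01 in the longest, while the BAF250A pair ranged from -0.04 to 0.05 over the same quintiles. The median log2 fold change of BAF250A over scrambled, from the authors' deposited table, lay between -0.05 and 0.15 in these quintiles. The levels of both scrambled libraries are therefore printed wherever a result turns on them.

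**Figure D1:**
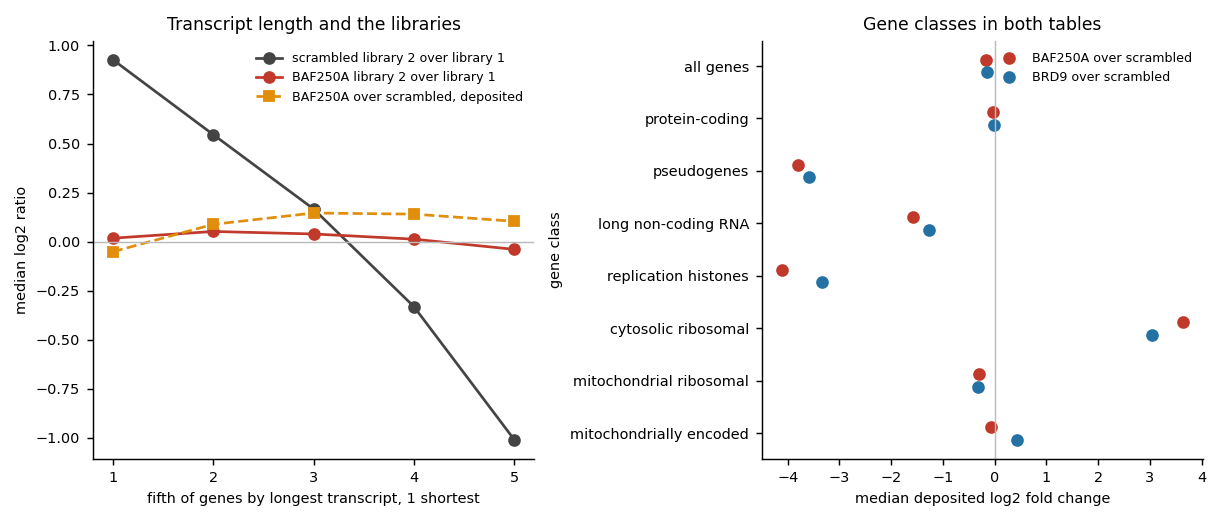
Left, the median log2 ratio between paired libraries and the median deposited log2 fold change, by quintile of genes in order of longest transcript. Right, the median deposited log2 fold change of gene classes for BAF250A (red) and BRD9 (blue) knockdown. The scrambled pair runs from 0.93 to -1.01 across the quintiles while the BAF250A pair stays near 0, and pseudogenes, histones and cytosolic ribosomal protein genes lie far from 0 in both knockdowns.

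The authors' deposited tables do not name which group is the numerator of the fold change. Among low genes whose mean has a single solution in whole reads, the denominator side held the same reads in the BAF250A and BRD9 tables in 4013 of 4013 genes and the numerator side in 61 of 1254, so the denominator is the scrambled group that both tables share. With that sign, the targeted gene was lower in the cells labelled as its knockdown. Arid1a (gene 93760, chr4:133679008-133756769 of GRCm38.p6, the assembly of mm10) stood at 6536 and 3249.7 in the scrambled libraries, 1365 and 1072 in the BAF250A libraries and 4288 and 4453 in the BRD9 libraries. The BAF250A pair lay below every other library. Arid1a fell by 1.95 log2 units (SE 0.48) in the authors' deposited table, with an adjusted p of 0.000381. Against the BRD9 libraries, limma on the recovered reads gave -1.85 (adjusted p 0.00437). With limma the fold against scrambled was -1.93 with all 4 libraries, and it missed the threshold at -2.10 without BAF250A library 1 and at -1.75 without library 2. Brd9 itself was 799 and 1030.2 in the scrambled and 1051 and 1000 in the BAF250A libraries, with overlapping groups. Among 27 tested SWI/SNF subunits 3 rose and 1, Arid1a, fell. The 3 risers were Phf10 of the PBAF form, Smarce1 of the common core and the ATPase Smarca2, with log2 fold changes in the authors' deposited table of 1.46, 1.49 and 1.56. Their share, 11.1%, was near the 11.2% of all genes called higher. With the Wald statistic scaled to its robust spread of 2.18, 0 subunits were higher and 0 lower at an unadjusted p under 0.05.

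Of the 16450 genes tested, 4729 (28.7%) passed an adjusted p of 0.05 in the authors' deposited table, with 1844 higher (11.2%) and 2885 lower (17.5%). Re-centred at the median of all genes tested, -0.18, the split was 2293 higher and 2488 lower. Counted by library, both BAF250A levels lay above both scrambled levels in 29.4% of genes and below both in 37.1%. The smallest called change was 1.02 on the log2 scale, with a median SE of 0.481, so no change under 2-fold was called. The BRD9 table shares the scrambled libraries, and it called 879 genes higher (5.11%) and 1604 lower (9.33%). A comparison without the scrambled libraries, limma on the recovered reads of 2 BAF250A against 2 BRD9 libraries, tested 13606 genes and called 851 higher (6.25%) and 938 lower (6.89%) in the BAF250A cells. The difference of the 2 deposited fold changes, tested with the summed squared SEs, which is too wide because the shared scrambled libraries cancel, called 90 higher (0.552%) and 324 lower (1.99%) of 16311. RNA of whole cultures was measured, so fewer cells of a kind and less RNA per cell cannot be told apart in any of these results.

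**Figure D2:**
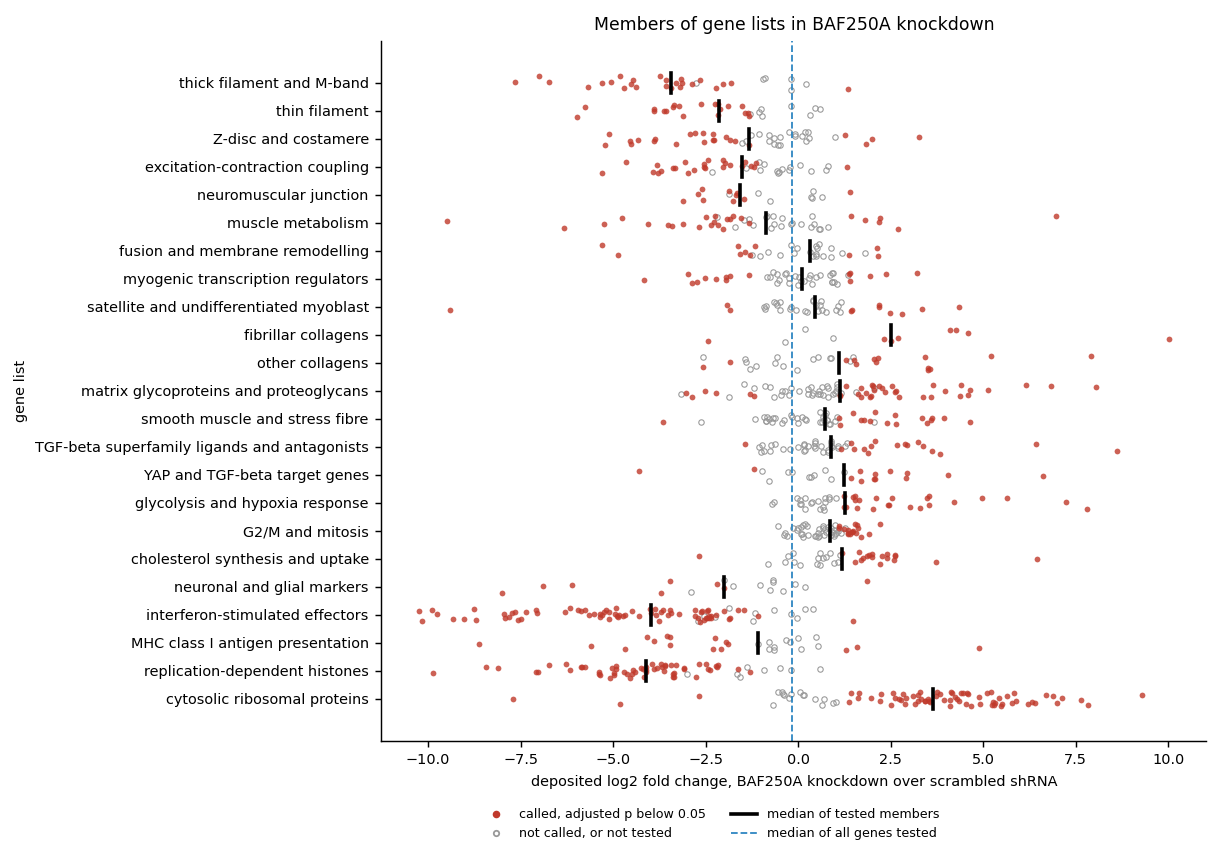
The deposited log2 fold change of BAF250A knockdown over scrambled shRNA for each member of 23 gene lists, filled where called and open otherwise, with the median of tested members as a black bar and the median of all genes, -0.18, dashed. Sarcomere, calcium and interferon lists lie to the left, collagen, matrix and ribosomal lists to the right.

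The genes of the thick filament fell together. Of 29 tested members of the thick filament and M-band, 24 were lower and 1 higher, with a median log2 fold change of -3.44 against -0.18 over all genes, and 26 had both BAF250A levels below both scrambled levels. The embryonic myosin heavy chain Myh3 (gene 17883, chr11:67078273-67102291) stood at 50278 and 78111 in the scrambled, 2927 and 2842 in the BAF250A and 108478 and 63420 in the BRD9 libraries. It fell by 4.38 log2 units (SE 0.44) in the authors' deposited table (adjusted p 1.45e-21). The perinatal heavy chain Myh8 was 526 and 487 in scrambled cells and 8.74 and 18.1 after BAF250A knockdown, but 4972 and 974 in the BRD9 libraries. The adult fast chain Myh4 was 487 and 746 against 2.5 and 1.29. In all 3 genes both BAF250A levels lay below every scrambled level. The embryonic and atrial light chain Myl4 was 30866 and 122355 in scrambled and 1384 and 1184 in BAF250A libraries, and fell by 5.69 log2 units (SE 0.57) in the authors' deposited table. Trim63, the muscle ubiquitin ligase of the M-band, was 336 and 914 against 15 and 11.6, and Smpx, a small costameric protein of striated muscle, was 331 and 451 against 4.99 and 0. Mylk4, a myosin light chain kinase gene, was the single member that rose, from 209.5 and 106 to 412 and 420.4, and it was 2334 and 934 in the BRD9 libraries. With the Wald statistic scaled to its robust spread of 2.18, 15 of the thick filament genes were called lower. Of 20 members with little sequence shared with other genes, 15 were called lower.

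Most thin filament genes fell. Of 28 tested members, 20 fell and none rose, with a median of -2.14. At an unadjusted p under 0.05 in the deposited table, 0 were higher and 23 lower. The fast troponin C gene Tnnc2 was 10300 and 30237 in the scrambled and 1333 and 1167 in the BAF250A libraries and fell by 3.90 log2 units (SE 0.53) in the authors' deposited table. The actin-binding repeat gene Xirp1 went from 5549.9 and 8324 to 418 and 463. Its paralog Xirp2 had 1557 and 281 in scrambled cells and no read in either BAF250A library, so it was at least 482.1-fold lower against a floor of 3 reads over the group. The fast troponin T gene Tnnt3 was 6795 and 19560 against 2830.5 and 2994, with a change of -2.11 (SE 0.52) in the authors' deposited table. The cardiac actin Actc1, which embryonic skeletal muscle also uses and which is named after its values were seen, was 15044 and 30364 in scrambled, 7532 and 7917 in BAF250A and 124878 and 95851 in BRD9 libraries. Here the BRD9 pair lay far above both other pairs, and the BAF250A pair below both. Skeletal actin Acta1, known only as group means, was 267563 in scrambled and 40777 in BAF250A cells in the authors' deposited table, a log2 change of -2.64 (SE 0.51). Nebulin, the giant protein along the thin filament, was not called, and it is named here after its values were seen: Neb was 1748 and 1092 in the scrambled and 740.1 and 679 in the BAF250A libraries, with -0.98 (SE 0.46, adjusted p 0.0936) in the authors' deposited table. Against the BRD9 libraries, at 14326 and 2855, it was lower by limma, -3.17 (adjusted p 0.0255). With limma the thin filament count was 16 with all 4 libraries, 11 without BAF250A library 1 and 10 without library 2, and 5 with the scaled Wald statistic.

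At the Z-disc and costamere, 19 of 41 tested genes fell and 4 rose. The crosslinker Actn2 was 385 and 751 in scrambled, 27.5 and 23.3 in BAF250A and 5872 and 1437 in BRD9 libraries, and fell by 4.33 log2 units (SE 0.55) in the authors' deposited table. Unc45b, the myosin chaperone, was 2021 and 4708 against 121 and 144, and Itgb1bp2, the costameric chaperone melusin, was 2229.6 and 6825 against 137 and 93.1. Both pairs of BAF250A levels lay below every scrambled and BRD9 level of the same gene. The 4 that rose were the sarcoglycans Sgca and Sgcd, the intermediate filament gene Synm and the scaffold gene Pdlim5. Synm was 77.5 and 51.2 in the scrambled and 771 and 543 in the BAF250A libraries, a log2 change of 3.26 (SE 0.49) in the authors' deposited table. Sarcoglycans and synemin link the cytoskeleton to the membrane. Limma called 18 Z-disc genes lower with all 4 libraries, 8 without either BAF250A library, and 24 and 18 without scrambled library 1 and 2, and the scaled Wald statistic called 6.

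Calcium handling genes fell too. Of 39 tested genes of excitation-contraction coupling, 24 fell and 1 rose, with a median of -1.53. Casq2, a calcium-storing protein of the sarcoplasmic reticulum, was 5250.2 and 11332 in the scrambled, 309.5 and 292 in the BAF250A and 14119 and 8763 in the BRD9 libraries. It fell by 4.66 log2 units (SE 0.49) in the authors' deposited table (adjusted p 5.94e-20). The release channel Ryr1 was 3492 and 5648 against 718 and 821, and its voltage sensor Cacna1s 1368 and 2629 against 197 and 163. In both, the BAF250A pair lay well below the scrambled and BRD9 pairs. The muscle sodium channel Scn4a was 149.8 and 250.5 against 9.98 and 15.5, and the muscle caveolin Cav3 1380.2 and 3902 against 69.9 and 46.6. The single riser was the inward rectifier Kcnj2, at 487 and 208 in scrambled and 931 and 849.9 in BAF250A libraries. With limma 19 members were called lower, 10 without BAF250A library 1 and 9 without library 2, and 6 with the scaled Wald statistic.

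Synaptic genes of muscle fell in 9 of 16 tested members and 1 rose. The acetylcholine receptor subunit Chrnd was 6246 and 13170 in scrambled and 1428 and 1635 in BAF250A libraries, and Chrna1, the ligand-binding subunit, was 25714 and 45486 against 10173 and 11895. Colq, which anchors acetylcholinesterase, was 329 and 704 against 49.9 and 62.1, and the esterase Ache itself 171 and 469 against 25 and 64.7. The riser was Nrg1, the neuregulin ligand of ERBB receptors, from 824 and 456 to 1622 and 1833, with 114 and 205 in the BRD9 libraries. Its BAF250A levels lay above both other pairs, and the difference from BRD9 was 3.49 (adjusted p 0.00214) by limma. Limma called 7 junction genes lower with all 4 libraries, 1 and 2 without BAF250A library 1 and 2, and 9 and 8 without scrambled library 1 and 2, and the scaled Wald statistic called 0, or 4 at an unadjusted p under 0.05.

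**Figure D3:**
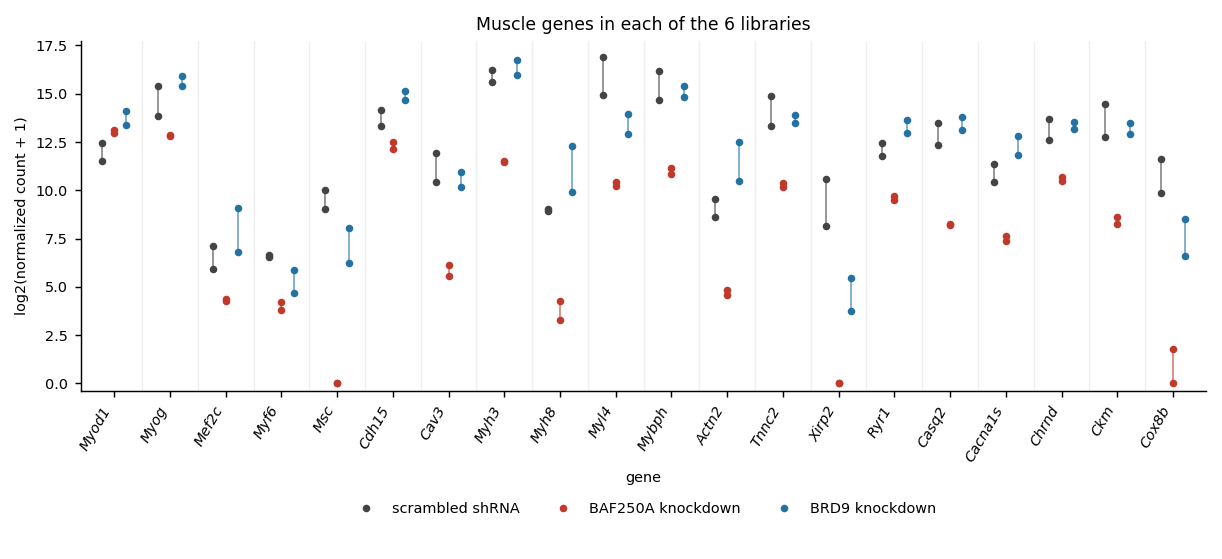
Normalized counts, as log2(normalized count + 1), of 20 muscle genes in each of the 6 libraries, with 2 points per group joined by a line (scrambled grey, BAF250A red, BRD9 blue). The genes shown were chosen after their values were seen. Myod1 is the exception among them: its BAF250A pair lies above the scrambled pair, while the sarcomere genes of the BAF250A pair lie below.

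The regulators of the muscle programme did not move as a block. Of 40 tested members 10 fell and 6 rose, with a median of 0.12. Myod1, the determination factor, was 2912 and 5636 in scrambled, 8099.6 and 8917 in BAF250A and 10817 and 17572 in BRD9 libraries, and its change of 0.97 (SE 0.47, adjusted p 0.106) in the authors' deposited table did not pass. Both its BAF250A levels were above both scrambled levels. Myog, which drives terminal differentiation, was 14679 and 44011 in scrambled and 7242 and 7431 in BAF250A libraries and fell by 1.94 log2 units (SE 0.53) in the authors' deposited table (adjusted p 0.00156). Its BRD9 levels were 43601 and 62769. Mef2c was 136 and 59.4 against 19.97 and 18.1, and the late factor Myf6 92.7 and 98.7 against 17.5 and 12.9. Both were low in all scrambled and BAF250A libraries, and Mef2c was 543 and 110.1 in the BRD9 libraries. Tead4, a TEA-domain factor with targets in muscle, was 1364 and 2487 against 245 and 301. The 6 risers included the TEAD cofactor Vgll2, the class IIa deacetylase Hdac4 and the E protein Tcf12, with log2 fold changes of 1.40, 1.41 and 1.38 in the authors' deposited table. Hdac4 holds MEF2 factors inactive, and Tcf12 partners MYOD. Limma called 7 myogenic regulators lower with all 4 libraries, 3 and 2 without BAF250A library 1 and 2, and 11 without either scrambled library, and the scaled Wald statistic called 0, or 3 at an unadjusted p under 0.05. Limma called 4 of them higher with all 4 libraries, 0 without either BAF250A library (2 and 1 at an unadjusted p under 0.05), and 19 and 12 without scrambled library 1 and 2, and the scaled Wald statistic called 0, or 1 at an unadjusted p under 0.05.

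Fusion genes fell in 7 (24.1%) and rose in 3 (10.3%) of 29, against 17.5% and 11.2% of all genes. Their median was 0.31, so the list did not fall as a whole. Of 28 with recovered reads, 10 had both BAF250A levels above both scrambled levels and 10 below. Mymk, the fusogen myomaker, fell by 4.86 log2 units (SE 0.51) in the authors' deposited table, where its group means were 55030 in scrambled and 1714 in BAF250A cells. Its partner Mymx was 844 and 2972 in the scrambled and 842 and 727 in the BAF250A libraries, and its change of -1.24 (SE 0.56, adjusted p 0.0818) in the authors' deposited table did not pass. The scrambled pair differed widely in this gene and both BAF250A levels lay under the lower one. Against the BRD9 libraries, at 6341 and 4816, Mymx was lower by limma, -2.82 (adjusted p 0.00134). Cdh15, the M-cadherin of myoblasts, was 10314 and 18586 against 4563 and 5876, whereas the coreceptor gene Boc rose from 349 and 279 to 1398 and 1427. Limma called 3 fusion genes lower with all 4 libraries, 1 without either BAF250A library, and 8 and 4 without scrambled library 1 and 2, and the scaled Wald statistic called 2.

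Of 43 tested muscle metabolism genes, 20 fell and 6 rose. The muscle creatine kinase Ckm was 6906 and 22986 in scrambled and 305 and 396 in BAF250A libraries, with a change of -5.24 (SE 0.55) in the authors' deposited table. Its brain form Ckb moved the other way, from 901 and 1836 to 5759.6 and 7229. The muscle cytochrome oxidase subunit Cox8b was 914 and 3200.4 in scrambled cells and 2.5 and 0 after BAF250A knockdown, the second pair being 2 reads and none. Ppargc1a, a coactivator of mitochondrial genes, was 494 and 189 against 17.5 and 36.2, and 81.9 and 12.2 in BRD9 libraries. Limma called 16 metabolism genes lower with all 4 libraries, 8 without either BAF250A library, and 23 and 17 without scrambled library 1 and 2, and the scaled Wald statistic called 3.

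Genes of undifferentiated myoblasts and satellite cells rose in 8 (23.5%) and fell in 3 (8.82%) of 34 tested members, against 11.2% and 17.5% of all genes. BRD9 knockdown called 10 of 34 higher and 3 lower. Directly between knockdowns, limma called 2 of 32 higher and 7 lower in BAF250A cells. Id3, an inhibitor of E-protein partners of MYOD, was 787 and 1278 in scrambled and 6322 and 5689.5 in BAF250A libraries, and Id2 131 and 57.6 against 791 and 618. Both rose, by 2.48 (SE 0.45) and 2.81 (SE 0.52) log2 units in the authors' deposited table. Fgfr4, a receptor tyrosine kinase of myoblasts, was 65.4 and 71.3 in scrambled, 1388 and 1607 in BAF250A and 1645 and 2565 in BRD9 libraries. The levels of both knockdowns were above the scrambled pair. Vcam1, a satellite cell adhesion molecule, rose from 1773 and 1253 to 7155 and 6989.6. Against these, Myf5 fell from 2804 and 802 to 459 and 509.7, and Msc, a bHLH repressor of myoblasts, went from 523 and 1027 to no read in either library, at least 406.6-fold lower. Pax7, the satellite cell factor, was 57.1 and 36.6 in scrambled and 47.4 and 64.7 in BAF250A libraries, which overlap, and 880.5 and 1178 in BRD9 libraries. Limma called 8 satellite cell genes higher with all 4 libraries, 2 and 3 without BAF250A library 1 and 2, and 14 and 12 without scrambled library 1 and 2, and the scaled Wald statistic called 1.

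Set directly against BRD9 knockdown, the thick filament, thin filament and calcium lists had the largest shares of lower genes among the 46 lists. By limma, without the scrambled libraries, 25 of 28 thick filament, 21 of 24 thin filament, 21 of 38 Z-disc, 25 of 37 calcium and 8 of 16 junction genes were lower in BAF250A than in BRD9 cells, against 6.89% of all genes. One Z-disc and 1 junction gene were higher. Against the scrambled libraries, whose reads both tables use, BRD9 knockdown called 3 of 29 thick filament genes lower and 3 higher, and 1 of 28 thin filament genes lower and 4 higher. Rbm24, an RNA-binding splicing regulator of muscle chosen after its values were seen, was 219 and 129.8 in scrambled, 372 and 359.6 in BAF250A and 4757 and 6267 in BRD9 libraries, and its difference between knockdowns was -3.90 (adjusted p 0.000818). On that scale Myod1 was -0.70 (adjusted p 0.134), Myog -2.83 (adjusted p 0.00125) and Ryr1 -3.72 (adjusted p 0.00106).

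**Figure D4:**
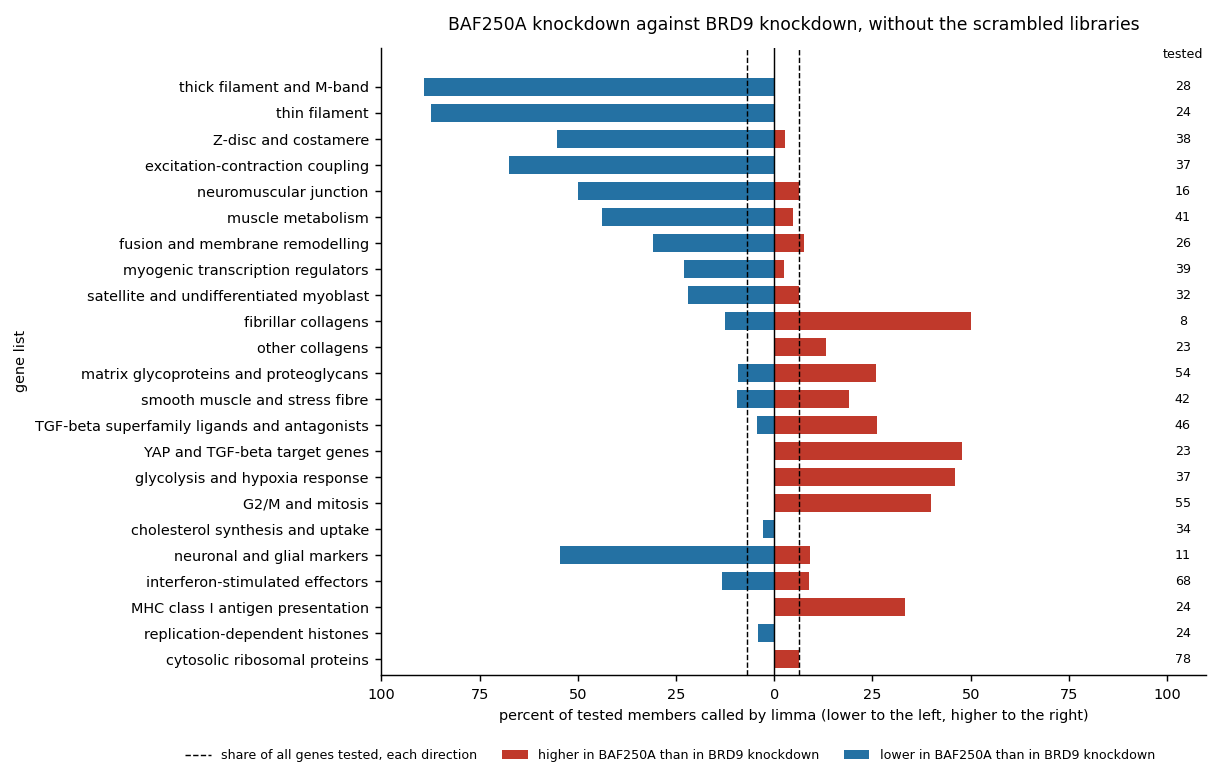
Percent of tested members called by limma in BAF250A against BRD9 knockdown, higher to the right and lower to the left, for 23 gene lists, with the number tested at the right edge and the shares of all genes, 6.25% and 6.89%, dashed. Muscle lists reach 25 of 28 members lower, YAP targets 11 of 23 and mitotic genes 22 of 55 members higher, while 5 of 78 cytosolic ribosomal genes are higher and 1 of 34 cholesterol genes is lower.

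The promoters of the fallen muscle genes were read from the RefSeq table of GRCm38.p6, 250 bases before to 50 after each start. Of genes called lower in 5 lists (thick filament, thin filament, Z-disc, calcium handling and junction), 70 had a promoter there. All motifs were read on both strands. The MYOD-type E-box CAGCTG lay in 38.6% of them against 18.3% of all 27025 genes with a promoter. A MEF2 box lay in 10 of the 70 (14.3%) against 1001 of the 27025, and a CArG box, the site of serum response factor, in 10.0% against 1.81%. The E-box CACCTG lay in 28.6% against 22.6%, and the TEAD site CATTCC in 31.4% against 16.6%. Among the 15 thin filament genes with a promoter, CAGCTG lay in 53.3% and a CArG box in 26.7%, and among the 20 thick filament genes CATTCC lay in 10 and a MEF2 box in 5. A match is a run of letters and shows no binding. Stretches of 80 bases, 5′ to 3′ on the gene's strand with the matched motif in capitals, show MEF2, CArG and CAGCTG matches in genes described here.
Myh4 MEF2 box (chr11:67237595-67237674, plus strand): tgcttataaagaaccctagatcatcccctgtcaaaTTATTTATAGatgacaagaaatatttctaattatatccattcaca
Casq2 MEF2 box (chr3:102086311-102086390, plus strand): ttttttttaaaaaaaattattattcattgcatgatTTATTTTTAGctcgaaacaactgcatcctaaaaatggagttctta
Acta1 CArG box (chr8:123894804-123894883, minus strand): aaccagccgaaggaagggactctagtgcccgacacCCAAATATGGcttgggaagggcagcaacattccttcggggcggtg
Actc1 CArG box (chr2:114052878-114052957, minus strand): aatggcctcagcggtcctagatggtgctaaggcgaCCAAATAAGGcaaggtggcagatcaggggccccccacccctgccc
Trim63 CAGCTG (chr4:134315011-134315090, plus strand): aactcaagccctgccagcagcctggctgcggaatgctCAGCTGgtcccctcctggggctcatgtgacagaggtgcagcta
Cav3 CAGCTG (chr6:112459362-112459441, plus strand): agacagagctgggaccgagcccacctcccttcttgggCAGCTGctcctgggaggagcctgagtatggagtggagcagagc
The MEF2 boxes of Myh4 and Casq2 begin 182 and 69 bases before the start, the CArG boxes of Acta1 and Actc1 73 and 47 bases, and the E-boxes of Trim63 and Cav3 72 and 106 bases before it.

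Collagen genes rose. Of 11 tested fibrillar collagens 7 were higher and 1 lower, with a median of 2.51. BRD9 knockdown called 6 of the 11 higher and none lower, with a median of 1.49. Directly between knockdowns, limma called 4 of 8 higher and 1 lower in BAF250A cells. The chains of type I and III collagen, the bulk of interstitial matrix, are known only as group means in the authors' deposited table, where Col1a1 (gene 12842, chr11:94936224-94953042) went from 18214 to 463259, a log2 change of 4.58 (SE 0.41). Col1a2 and Col3a1 rose there by 4.26 (SE 0.41) and 2.71 (SE 0.42). Col5a1, a chain that nucleates type I fibrils, was 18592 and 18549 in scrambled, 90599 and 100819 in BAF250A and 48318 and 59643 in BRD9 libraries. Col11a1, of cartilage and embryonic fibrils, was 1.9 and 1.83 in scrambled and 3098 and 2836 in BAF250A libraries, with 196 and 193 in BRD9 libraries, and rose by 10.02 log2 units (SE 0.67) in the authors' deposited table. The 3 pairs of Col11a1 do not overlap. Col2a1, which defines cartilage, was 4.44 and 3.66 against 87.4 and 82.8 and had no read in BRD9 libraries. Limma, which cannot test the type I and III chains, called 4 of 8 fibrillar genes higher, and 2 when either BAF250A library was left out, and the scaled Wald statistic called 3 of 11.

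Of 28 other tested collagens 12 rose and 2 fell, and BRD9 knockdown called 12 higher and 1 lower in the same list. The microfibril chain Col6a1 was 4136 and 6229.8 in scrambled, 58478 and 65896 in BAF250A and 50581 and 70264 in BRD9 libraries. Both knockdown pairs were high, and their difference by limma was 0.06 (adjusted p 0.888). The fibril-associated chain Col12a1 was 8942 and 3743 in scrambled, 82149 and 72363 in BAF250A and 11924 and 29566 in BRD9 libraries, which is 2.04 (adjusted p 0.0215) between knockdowns. Col8a2, a network-forming chain, was 25.4 and 35.7 in scrambled and 8437 and 8118 in BAF250A libraries. Its BRD9 levels, 300.3 and 2581, differed widely from each other and the difference between knockdowns, 3.23 (adjusted p 0.0538), did not pass. Col23a1, a transmembrane collagen, fell from 539.6 and 670 to 79.9 and 114. Limma called 12 other collagens higher with all 4 libraries, 6 and 7 without BAF250A library 1 and 2, and 13 and 12 without scrambled library 1 and 2, and the scaled Wald statistic called 5.

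Matrix glycoproteins and proteoglycans were called higher in 31 and lower in 6 of 66 tested members, with a median of 1.12. Fmod, fibromodulin, a collagen-binding proteoglycan of tendon, was 29.2 and 50.3 in scrambled and 10976 and 12838 in BAF250A libraries and rose by 8.04 log2 units (SE 0.47) in the authors' deposited table. The laminin chain Lama4 was 368 and 325 against 9305 and 9256, and Lama1 52.7 and 93.2 against 1741 and 1543. Mfap2, a microfibril protein of elastic fibres, was 3.17 and 4.57 against 533 and 556. In all 4 genes both BAF250A levels lay far above the scrambled pair. Tnn, tenascin N, was 6.35 and 4.57 in scrambled, 462 and 472 in BAF250A and 7.96 and 7.34 in BRD9 libraries, 5.76 (adjusted p 0.00106) between knockdowns. Postn, periostin, was 30989 and 6566 in scrambled and 29488 and 31428 in BAF250A libraries, so the groups overlap, with 0.67 (SE 0.59, adjusted p 0.426) in the authors' deposited table. Against the BRD9 pair, at 4095 and 3405, it was higher by 3.03 (adjusted p 0.000822). The members that fell included nephronectin, Npnt, at 3193 and 2385 against 472 and 475, and the laminin chain Lama5, at 9754 and 9408 against 3785 and 4509.7. Fibronectin, Fn1, and decorin, Dcn, changed by -0.64 (SE 0.44, adjusted p 0.28) and 0.01 (SE 0.50, adjusted p 0.991) in the authors' deposited table. With limma 26 of 53 matrix glycoprotein genes were called higher, 13 without BAF250A library 1 and 12 without library 2, and 9 with the scaled Wald statistic.

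Of 67 tested enzymes and inhibitors that shape matrix, 20 rose (29.85%, against 11.2% of all genes). The 13 that fell (19.4%) were near the share of all genes, 17.5%. The gelatinase Mmp2 was 764 and 1765 in scrambled, 21675 and 22003 in BAF250A and 16749 and 21764 in BRD9 libraries, high in both knockdowns. The metalloprotease inhibitor Timp3 was 1691 and 728 in scrambled, 19340 and 19599 in BAF250A and 4971 and 3170.2 in BRD9 libraries. Lox, the collagen crosslinking oxidase, also named after its values were seen, was 5587 and 1954 in scrambled, 31772 and 35344 in BAF250A and 6837 and 6765 in BRD9 libraries, so its BRD9 levels stood near the scrambled ones. The difference between knockdowns was 2.30 (adjusted p 0.00125). Mmp15, a membrane-type metalloprotease, fell from 5928 and 8753 to 1069.5 and 1274, and Loxl2, a relative of Lox, from 7862 and 5351 to 1254 and 1307. Limma called 18 matrix enzyme genes higher with all 4 libraries, 9 without either BAF250A library, and 25 and 31 without scrambled library 1 and 2, and the scaled Wald statistic called 5. Limma called 12 such genes lower with all 4 libraries, 6 without either BAF250A library, and 15 without either scrambled library, and the scaled Wald statistic called 0, or 8 at an unadjusted p under 0.05.

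Of 44 tested integrin and adhesion genes, 13 rose (29.55%, against 11.2% of all genes). The 8 that fell (18.2%) were near the share of all genes, 17.5%. The collagen-binding integrin chains rose: Itga11 was 19 and 34.7 in scrambled, 11190 and 12277 in BAF250A and 634 and 2289.6 in BRD9 libraries, and Itga1 was 6.35 and 9.14 against 319 and 309. Itga10, which also binds collagen, fell, from 206 and 269 to 69.9 and 72.4. The mesenchymal cadherin Cdh11 rose from 462 and 119.8 to 4251 and 3959.9. The laminin-binding chain Itga6 fell from 1966 and 651 to 412 and 313, and Itga4, a receptor of VCAM1 and fibronectin, from 832 and 262 to 151 and 105. Limma called 11 adhesion genes higher with all 4 libraries, 6 without either BAF250A library, and 16 and 15 without scrambled library 1 and 2, and the scaled Wald statistic called 2. Limma called 4 adhesion members lower with all 4 libraries, 1 without either BAF250A library, and 9 without either scrambled library, and the scaled Wald statistic called 1.

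**Figure D5:**
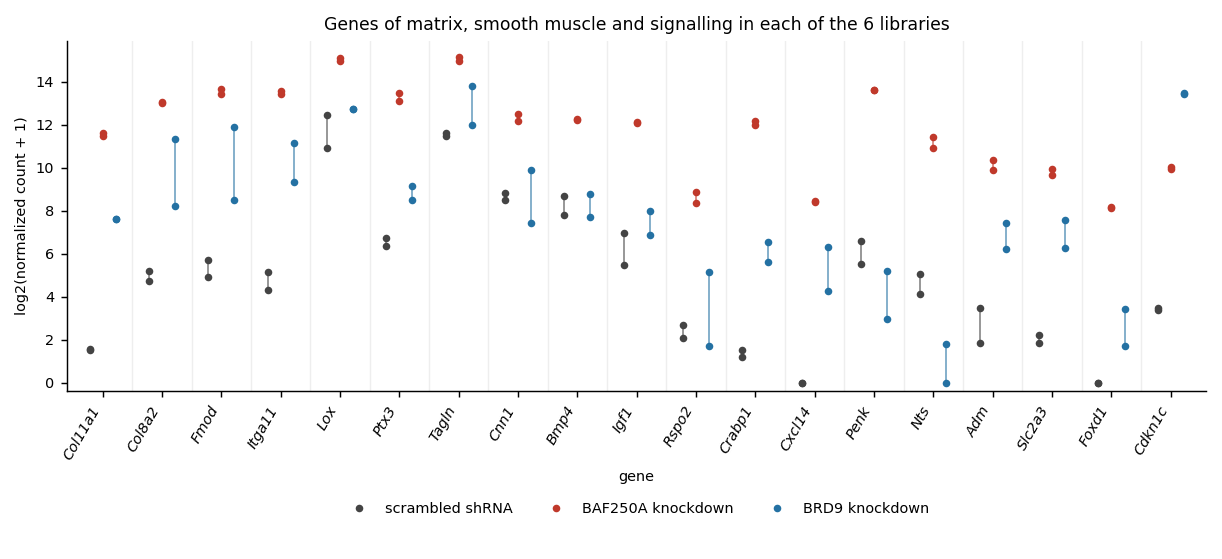
Normalized counts, as log2(normalized count + 1), of 19 genes of matrix, smooth muscle, signalling and metabolism in each of the 6 libraries, with 2 points per group joined by a line (scrambled grey, BAF250A red, BRD9 blue). The genes shown were chosen after their values were seen. The BAF250A pair lies above both scrambled libraries in all 19, and above both BRD9 libraries in all but Cdkn1c.

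Smooth muscle and stress fibre genes rose in 16 and fell in 1 of 49 tested members. Cnn1, calponin, a marker of contractile smooth muscle, was 356 and 452 in scrambled, 4606 and 5731 in BAF250A and 173 and 937 in BRD9 libraries. It rose by 3.60 log2 units (SE 0.43) in the authors' deposited table and differed between knockdowns by 3.67 (adjusted p 0.0187). The smooth muscle actin gene Actg2 was 2329 and 2371 in scrambled, 33785 and 42442 in BAF250A and 3355 and 13305 in BRD9 libraries, and Tagln, the actin-binding transgelin, 2819 and 3093 in scrambled, 32469 and 36350 in BAF250A and 4039 and 14436 in BRD9 libraries. For these 3 genes the BRD9 pair was split, with its second library several times its first, and the BAF250A pair was above both. Acta2, known as group means, rose from 169423 to 369391 in the authors' deposited table. Pgm5, the adherens junction protein aciculin, was the member that fell, from 3009 and 6301 to 322 and 375. Myh11, the smooth muscle heavy chain, was 3.81 and 11.9 in scrambled and 32.4 and 41.4 in BAF250A libraries. Limma called 13 smooth muscle genes higher with all 4 libraries, 8 without either BAF250A library, and 25 and 19 without scrambled library 1 and 2, and the scaled Wald statistic called 6.

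Mechanosensitive genes that YAP and TGF-beta switch on were higher in 11 and lower in 2 of 23. Against BRD9 cells 11 of 23 were higher and none lower. Ptx3, pentraxin 3, was 105 and 79.5 in scrambled, 11309 and 8799.5 in BAF250A and 357 and 557 in BRD9 libraries. The YAP feedback gene Amotl2 was 3729.7 and 3812 in scrambled, 21453 and 21854 in BAF250A and 6601 and 7362 in BRD9 libraries, and the matricellular gene Ccn1, named after its values were seen, 14541 and 11774 in scrambled, 44284 and 41889 in BAF250A and 3341 and 14591 in BRD9 libraries. Its close relative Ccn2 went the other way against scrambled, from 19157 and 14386 to 7508 and 6834, and was 1235 and 3892 in BRD9 libraries. The order of Ccn2 was thus scrambled over BAF250A over BRD9. Limma called 11 target genes higher with all 4 libraries, 4 without either BAF250A library, and 15 and 14 without scrambled library 1 and 2, and the scaled Wald statistic called 2. Of 8 risen genes of the list with a promoter, 3 (37.5%) held the TEAD site CATTCC, against 16.6% of all genes. The share was 33.3% in risen smooth muscle, 30.8% in risen mitotic and 50% in fallen thick filament genes, so it is not particular to this list. It was 5.26% in risen glycolysis genes and 0 of 9 in risen cholesterol genes. The matches of Amotl2 and Ccn1 begin 65 and 103 bases before the start.
Amotl2 CATTCC (chr9:102717702-102717781, plus strand): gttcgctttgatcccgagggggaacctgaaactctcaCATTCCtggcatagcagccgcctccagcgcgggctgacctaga
Ccn1 CATTCC (chr3:145650046-145650125, minus strand): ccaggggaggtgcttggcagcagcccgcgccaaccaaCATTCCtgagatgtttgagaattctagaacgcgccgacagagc

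Ligands and antagonists of the TGF-beta superfamily rose in 16 and fell in 1 of 47, and BRD9 knockdown called 3 of them each way. Bmp4, which blocks myogenesis and favours other mesenchymal fates, was 408 and 225 in scrambled, 4932 and 4712 in BAF250A and 207 and 431 in BRD9 libraries. It rose by 3.84 log2 units (SE 0.46) in the authors' deposited table and was 4.01 (adjusted p 0.00157) between knockdowns. Chrdl1, an extracellular BMP antagonist, was 5.08 and 1.83 in scrambled and 402 and 375 in BAF250A libraries. The intracellular brakes Smad6 and Bambi, which BMP and TGF-beta signals induce, were 83.8 and 103 against 1264 and 1144 and 27.9 and 29.3 against 202 and 254. Gdf15, a stress-induced member of the family, fell from 3208 and 6196 to 1752 and 1651. Limma called 15 superfamily genes higher with all 4 libraries, 9 and 10 without BAF250A library 1 and 2, and 28 and 15 without scrambled library 1 and 2, and the scaled Wald statistic called 4.

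In the Wnt pathway 16 of 52 tested genes rose and 4 fell. Wnt7b, a ligand, was 2963 and 5811 in scrambled, 7.49 and 7.76 in BAF250A and 636 and 229.9 in BRD9 libraries, and fell by 8.78 log2 units (SE 0.60) in the authors' deposited table. Rspo2, which amplifies Wnt signals through LGR receptors, rose from 3.17 and 5.48 to 472 and 329. The secreted Wnt inhibitor Sfrp2 rose from 206 and 197 to 5793 and 5763, and Dkk3 of the dickkopf family from 52.1 and 31.1 to 1352 and 1228. Limma called 14 Wnt genes higher with all 4 libraries, 8 and 7 without BAF250A library 1 and 2, and 26 and 19 without scrambled library 1 and 2, and the scaled Wald statistic called 4.

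More growth factor and receptor genes rose than fell. Of 57 tested, 17 rose (29.8%, against 11.2% of all genes), with a median of 0.31. The 7 that fell (12.3%) were a smaller share than the 17.5% of all genes. Igf1, the insulin-like growth factor, was 123 and 43.9 in scrambled, 4324 and 4441 in BAF250A and 116 and 249.5 in BRD9 libraries, 4.68 (adjusted p 0.00125) between knockdowns. Fgf10, a mesenchymal ligand for epithelia, was 78.7 and 50.3 in scrambled, 1449 and 1365 in BAF250A and 173 and 154 in BRD9 libraries. The PDGF receptors that mark fibroblastic cells rose too: Pdgfra was 340.3 and 186 in scrambled and 1907 and 1648 in BAF250A libraries, and Pdgfrb 2529 and 3170.2 against 22583 and 22212. Between knockdowns the receptors parted, with Pdgfra at 1.76 (adjusted p 0.00608) and Pdgfrb at 0.32 (adjusted p 0.47). Igfbp2, an abundant binding protein of IGFs, fell from 96415 and 193299 to 17106 and 18499, and was 8561 and 23900 in BRD9 libraries. Areg, an EGF receptor ligand, fell from 566 and 715 to 49.9 and 62.1. Limma called 15 growth factor genes higher with all 4 libraries, 5 and 6 without BAF250A library 1 and 2, and 28 and 20 without scrambled library 1 and 2, and the scaled Wald statistic called 4. Limma called 4 growth factor members lower with all 4 libraries, 3 without either BAF250A library, and 11 and 6 without scrambled library 1 and 2, and the scaled Wald statistic called 1.

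Genes that carry and convert retinoids included large increases. Crabp1, the cellular retinoic acid binding protein, was 1.27 and 1.83 in scrambled, 4086 and 4665 in BAF250A and 47.8 and 93 in BRD9 libraries, and rose by 10.76 log2 units (SE 0.70) in the authors' deposited table. The retinal reductase Dhrs3 went from 103 and 248 to 2796 and 2828, and the receptor Rarb from 12.7 and 3.66 to 499 and 449. All 3 were also higher than in BRD9 cells by limma, at 6.01, 2.56 and 2.57. Stra6, the retinol importer, fell from 976 and 1169 to 232 and 294, and Cyp26b1, which degrades retinoic acid, from 185 and 272 to 38.7 and 29.8. They belong to a list of 45 tested Notch, hedgehog and retinoid genes, of which 12 rose and 6 fell. Within it the hedgehog receptor and target Ptch1 rose from 321 and 139.9 to 1077 and 1105 while Hhip, another hedgehog-binding target, fell from 829.8 and 325 to 7.49 and 0. Limma called 12 Notch, hedgehog and retinoid genes higher with all 4 libraries, 8 without either BAF250A library, and 18 and 19 without scrambled library 1 and 2, and the scaled Wald statistic called 4.

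Among mesenchymal transcription factors 23 of 76 rose and 7 fell, and BRD9 knockdown called 3 higher and 1 lower. Foxd1, a forkhead factor of stromal progenitors, had no read in scrambled cells, 286 and 279 in BAF250A and 2.28 and 9.78 in BRD9 libraries, at least 251.4-fold higher than scrambled. Mkx, a tendon factor that represses muscle genes, was 34.9 and 24.7 in scrambled, 329 and 319.5 in BAF250A and 84.2 and 56.3 in BRD9 libraries, and Osr1, of connective tissue progenitors, 154 and 156 in scrambled, 754 and 820.2 in BAF250A and 221 and 229.9 in BRD9 libraries. Both lay above the other pairs, at 2.22 (adjusted p 0.0124) and 1.80 (adjusted p 0.00867) between knockdowns. Sox11 fell from 2340.1 and 1422 to 382 and 277. The factors that define tendon, cartilage and bone were not called: Scx, Sox9 and Runx2 changed by -1.11 (SE 0.51, adjusted p 0.0851), -0.30 (SE 0.44, adjusted p 0.665) and 0.32 (SE 0.48, adjusted p 0.662) in the authors' deposited table. Twist1, a mesenchymal bHLH factor that inhibits MYOD, had no read in scrambled cells and was at least 10.24-fold higher, but its levels were only 7.49 and 15.5. Hox genes were called higher in 3 (14.3%) and lower in 2 (9.52%) of 21, against 11.2% and 17.5% of all genes. Limma called 17 mesenchymal factors higher with all 4 libraries, 4 and 3 without BAF250A library 1 and 2, and 42 and 23 without scrambled library 1 and 2, and the scaled Wald statistic called 2. Limma called 6 mesenchymal members lower with all 4 libraries, 1 and 2 without BAF250A library 1 and 2, and 10 and 11 without scrambled library 1 and 2, and the scaled Wald statistic called 0, or 2 at an unadjusted p under 0.05.

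Several of the largest increases were genes of secreted or signalling proteins outside these lists. Penk, the enkephalin precursor, was 44.4 and 94.2 in scrambled, 12548 and 12636 in BAF250A and 6.83 and 35.5 in BRD9 libraries, and rose by 7.32 log2 units (SE 0.48) in the authors' deposited table. Nts, the neurotensin precursor, was 32.4 and 16.5 in scrambled, 2726 and 1930.1 in BAF250A and 0 and 2.45 in BRD9 libraries. Rgs4, which shortens G-protein signals, was 8.89 and 7.31 in scrambled, 1558 and 1713 in BAF250A and 11.4 and 85.6 in BRD9 libraries, and the glutamate transporter Slc1a6 9.52 and 6.4 in scrambled, 1358 and 1348 in BAF250A and 129.7 and 181 in BRD9 libraries. In each the lower BAF250A level was several times every other library. Cytokine genes split. Cxcl14 had no read in scrambled cells and stood at 332 and 344 in BAF250A libraries, at least 300.8-fold higher. The IL-1 receptor antagonist Il1rn was 241 and 158 in scrambled, 3428 and 3164 in BAF250A and 31.9 and 119.9 in BRD9 libraries, and the decoy receptor osteoprotegerin, Tnfrsf11b, 9.52 and 1.83 in scrambled, 439 and 435 in BAF250A and 20.5 and 29.4 in BRD9 libraries. The interferon-inducible chemokine Cxcl10 fell from 2737 and 4324 to 59.9 and 54.3 and was 61.4 and 149 in BRD9 libraries. Of 61 tested cytokine genes 15 rose and 17 fell, while BRD9 knockdown called 4 higher and 16 lower. Directly against BRD9 cells 14 of 52 were higher and 2 lower.

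Some genes better known from neurons fell. Of 16 tested neuronal and glial markers 7 fell and 1 rose, with a median of -1.91 with genes at 0 reads set to their bound. The neurofilament gene Nefm was 2980 and 1927 in scrambled, 9.98 and 5.17 in BAF250A and 167 and 205 in BRD9 libraries, and fell by 7.99 log2 units (SE 0.59) in the authors' deposited table. Nefl was 3381 and 2799 in scrambled, 19.97 and 25.9 in BAF250A and 1574 and 807 in BRD9 libraries, the growth cone gene Gap43 3616 and 2787 in scrambled, 44.9 and 38.8 in BAF250A and 704 and 385 in BRD9 libraries, and the tubulin Tubb3 4738 and 7261 in scrambled, 417 and 450.2 in BAF250A and 3429 and 6088 in BRD9 libraries. Nes, nestin, an intermediate filament of myoblasts as well as neural progenitors, was 105456 and 74664 in scrambled, 18357 and 19555 in BAF250A and 67905 and 70125 in BRD9 libraries. In all 5 the BAF250A pair was the lowest, and all 5 were lower than in BRD9 cells by limma, at -4.50, -5.57, -3.61, -3.40 and -1.86. Stmn2 went the other way, from 545 and 1005 to 3376 and 2427. Tubb3 aside, the defining markers of neurons and glia were near 0 in every library. Snap25 and Sox10 had no read. Rbfox3 was 0 and 9.14 in scrambled and 2.5 and 0 in BAF250A libraries. Gfap was 9.52 and 5.48 in scrambled and 4.99 and 2.59 in BAF250A libraries. The nerve growth factor receptor Ngfr, 387 and 653 in scrambled cells, had no read in BAF250A libraries and was at least 272.7-fold lower. Gpnmb, a membrane glycoprotein of pigment cells and macrophages, was 1059.6 and 1375 against none, at least 638.7-fold lower.

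Glycolytic and hypoxia-responsive genes were called higher in 23 and lower in none of 42 tested members, with a median of 1.27. Directly against BRD9 cells 17 of 37 were higher and none lower. The glucose transporter Slc2a3 was 2.54 and 3.66 in scrambled, 804 and 965 in BAF250A and 187 and 75.8 in BRD9 libraries, and rose by 7.80 log2 units (SE 0.63) in the authors' deposited table. Adm, adrenomedullin, a classical target of hypoxia-inducible factors, was 2.54 and 10.1 in scrambled, 938 and 1314 in BAF250A and 171 and 73.4 in BRD9 libraries. The factors themselves were higher: Epas1, which encodes HIF-2 alpha, was 19 and 4.57 in scrambled, 296 and 225 in BAF250A and 11.4 and 7.34 in BRD9 libraries. Hif1a was 9495 and 2375 in scrambled, 18492 and 19973 in BAF250A and 8486 and 4325 in BRD9 libraries, and changed by 1.64 (SE 0.57) in the authors' deposited table (adjusted p 0.0177). The oxidoreductase Ero1a, another hypoxia target, rose from 1477 and 994 to 13808 and 16569. The response was not uniform, since Vegfa, Slc2a1 and Gapdh changed by 0.07 (SE 0.43, adjusted p 0.924), 0.68 (SE 0.45, adjusted p 0.266) and -0.64 (SE 0.48, adjusted p 0.334) in the authors' deposited table. With limma 20 of 37 were called higher, 11 without BAF250A library 1 and 10 without library 2, and the scaled Wald statistic called 7 of 42.

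Cholesterol genes were higher in 18 of 35 tested members and lower in 1, and BRD9 knockdown called 17 higher and none lower. The sterol sensor Insig1 was 536 and 382 in scrambled, 3209 and 2600.2 in BAF250A and 2905 and 4202 in BRD9 libraries. Its levels in both knockdowns were above both scrambled libraries. Directly between knockdowns 1 of 34 members was called lower in BAF250A cells and none higher. The promoter of Hmgcs1, a synthase of the cholesterol pathway chosen after its values were seen, holds the sterol element TCACNCCAC 137 bases before the start. The motif was found in 1.44% of all promoters. Hmgcs1 was the only 1 of 9 risen cholesterol genes with a promoter to hold it, and 2 of 19 risen glycolysis genes held it too.
Hmgcs1 TCACNCCAC (chr13:119690178-119690257, plus strand): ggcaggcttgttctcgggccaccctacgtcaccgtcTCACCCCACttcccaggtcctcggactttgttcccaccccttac
Limma called 17 of 34 higher, and 3 when either BAF250A library was left out, and the scaled Wald statistic called 2 of 35. Respiratory chain genes rose in 27 and fell in none of 76, with 22 higher and 1 lower in the BRD9 table and none called between knockdowns by limma, where 7 were higher and 1 lower at an unadjusted p under 0.05. Limma called 24 respiratory genes higher with all 4 libraries, 10 and 11 without BAF250A library 1 and 2, and 30 and 46 without scrambled library 1 and 2, and the scaled Wald statistic called 7. At an unadjusted p under 0.05 it had 31 respiratory genes higher and 19 lower without scrambled library 1, and 54 and 1 without library 2, and the scrambled libraries differed from each other by a median of 1.06 log2 units in this list. Among fatty acid and lipid genes 15 of 49 rose and 2 fell. Lpin1, a phosphatase and coactivator of lipid synthesis, was 526 and 342 in scrambled, 2454 and 2680.5 in BAF250A and 717 and 426 in BRD9 libraries, above both other pairs. Limma called 12 lipid genes higher with all 4 libraries, 1 without either BAF250A library, and 20 and 18 without scrambled library 1 and 2, and the scaled Wald statistic called 0, or 4 at an unadjusted p under 0.05.

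Mitotic genes were modestly higher. Of 55 tested G2/M genes 17 rose and none fell, with a median of 0.87, and against BRD9 cells 22 of 55 were higher and none lower. Ccnb1, the mitotic cyclin B1, was 1072 and 805 in scrambled, 4363 and 4669 in BAF250A and 2011 and 3212 in BRD9 libraries. Ube2c, the ubiquitin-conjugating enzyme of the anaphase-promoting complex, was 1627 and 2556 in scrambled, 7656 and 8578 in BAF250A and 3768 and 4753 in BRD9 libraries. Both genes separate the BAF250A pair from all other libraries. Mki67, the proliferation marker, was 13892 and 3527 in scrambled and 10179 and 8649 in BAF250A libraries, overlapping, with 0.11 (SE 0.57, adjusted p 0.912) in the authors' deposited table, and 1.09 (adjusted p 0.017) against BRD9. Cdk1 changed by 0.68 (SE 0.42, adjusted p 0.234) in the authors' deposited table. The mitotic count depends on single libraries: limma called 11 with all 4, 39 without scrambled library 1, 33 without scrambled library 2, and 0 when either BAF250A library was left out. At an unadjusted p under 0.05, limma had 22 higher with all 4 libraries, 2 without BAF250A library 1 and 1 without library 2. With the scaled Wald statistic the count was 0, or 2 at an unadjusted p under 0.05, and with Bonferroni adjustment 1. Genes of DNA replication and G1/S rose in 5 (9.62%) and fell in 4 (7.69%) of 52. Both shares were below those of all genes, 11.2% and 17.5%. Limma called 3 replication genes higher with all 4 libraries, 0 without either BAF250A library (also 0 at an unadjusted p under 0.05), and 14 and 13 without scrambled library 1 and 2, and the scaled Wald statistic called 0, also 0 at an unadjusted p under 0.05. The cell cycle inhibitors moved apart. Cdkn1c, p57, was 9.52 and 10.1 in scrambled, 1039.6 and 988 in BAF250A and 11263 and 11020 in BRD9 libraries, far above scrambled in both knockdowns and -3.46 (adjusted p 0.000818) between them. Cdkn1a, p21, which rises in normal myogenic arrest, fell from a group mean of 202765 to 51362 in the authors' deposited table.

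Interferon-stimulated genes were far lower in both knockdowns than in the scrambled cells. Of 84 tested effectors 74 fell and 1 rose, with a median of -3.98. The BRD9 table called 71 lower and none higher. Isg15, the ubiquitin-like modifier, was 20242 and 48006 in scrambled, 249.6 and 184 in BAF250A and 618 and 536 in BRD9 libraries. Oas3, a sensor of double-stranded RNA, was 2383 and 4993 in scrambled, 4.99 and 0 in BAF250A and 38.7 and 12.2 in BRD9 libraries, and the transcription factor Irf7 12082 and 29473 in scrambled, 229.6 and 202 in BAF250A and 259 and 223 in BRD9 libraries. Mx1, an antiviral GTPase, was 488 and 599.7 in scrambled cells and had no read in BAF250A libraries, at least 285.4-fold lower. The scrambled libraries are the only ones with high levels of these 4 genes. Since both contrasts use those libraries, a high state of the scrambled cells and a fall in each knockdown cannot be told apart for this list. Directly between knockdowns 6 of 68 effectors were higher and 9 lower. Isg15 was -1.42 (adjusted p 0.0275) between them. Ifnb1, interferon beta, was 8.89 and 17.4 in scrambled and 0 in BAF250A libraries. MHC class I genes fell in 13 and rose in 3 of 27. H2-K1, a classical heavy chain, was 14033 and 41607 in scrambled, 1649.9 and 1766 in BAF250A and 1301 and 401 in BRD9 libraries, and B2m, the shared light chain, changed by -0.78 (SE 0.48, adjusted p 0.219) in the authors' deposited table. Many effectors have near-identical relatives: of 44 with little shared sequence, 37 were called lower, and the scaled Wald statistic called 41 of 84.

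The interferon-stimulated response element core, a pair of GAAA runs with any 2 bases between them, lay in the promoters of 36 of 59 fallen effectors with a promoter (61.0%), against 3.99% of all genes. One match is shown for Oas3, and one for Ifit3, whose promoter stretch its neighbour Ifit3b repeats and whose matched letters are the reverse complement of the core.
Ifit3 interferon response element core (chr19:34583338-34583417, plus strand): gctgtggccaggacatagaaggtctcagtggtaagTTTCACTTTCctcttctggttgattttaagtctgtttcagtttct
Oas3 interferon response element core (chr5:120777690-120777769, minus strand): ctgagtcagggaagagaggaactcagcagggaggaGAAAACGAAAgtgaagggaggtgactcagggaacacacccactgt

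The remaining shifts follow gene class more than pathway, and they appear in both knockdown tables, which share the scrambled libraries. Of 462 tested pseudogenes 337 fell (72.9%) and 5 rose, with a median of -3.81, or -3.55 with 94 genes at their bound. The BRD9 table called 322 pseudogenes lower and 1 higher. Long non-coding RNAs fell in 285 and rose in 10 of 823. Replication-dependent histone genes, whose transcripts lack a poly(A) tail, fell in 58 of 62 and rose in none, with a median of -4.11, or -4.03 with genes at 0 reads at their bound, and the BRD9 table called 50 lower. Limma called 55 histone genes lower with all 4 libraries, 52 and 50 without BAF250A library 1 and 2, and 44 and 30 without scrambled library 1 and 2, and the scaled Wald statistic called 21. H4c14 was 219.7 and 387 in scrambled, 2.5 and 0 in BAF250A and 2.28 and 2.45 in BRD9 libraries. Cytosolic ribosomal protein genes went the opposite way, with 68 of 84 higher and 3 lower, a median of 3.64, and 63 higher and 2 lower in the BRD9 table. Rps29 was 20.9 and 29.3 in scrambled, 18135 and 18215 in BAF250A and 11468 and 11920 in BRD9 libraries. Rps29 was thus low in the scrambled pair alone. Prdx6b, a retro-copy of Prdx6, was 4181 and 7524 in scrambled libraries and had no read in the 4 knockdown libraries. A difference in how the scrambled libraries were made or counted and a response to both knockdowns cannot be told apart here. Mitochondrially encoded genes had a median of -0.06, with 1 of 13 lower, but the BAF250A libraries differed from each other by a median of 2.85 log2 units over the 6 whose reads were recovered. Directly between knockdowns, which leaves the scrambled libraries out, 5 of 78 cytosolic ribosomal genes were higher and none lower, and 1 of 24 histone genes lower. Of the genes named above, Myh3, Myh4, Myh8, Ckb, Itga10, Loxl2, Ccnb1, Smarce1, Gapdh, Isg15, Ifit3, H2-K1 and Rps29 share over 10% of their 31-base words with another gene, so their counts are uncertain to that extent. Of 12576 protein-coding genes at or under that share, 1463 were called higher and 1543 lower.

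Summed over a short marker set for each cell type, the libraries hold a myotube signal (the summed level of Myh3, Ckm, Tnnt3 and Myog) of 78659 and 164668 in scrambled, 13304 and 13662 in BAF250A and 188629 and 147831 in BRD9 cells. All 6 myotube markers, which add Acta1 and Mymk, were called lower. The myoblast sum of Myod1, Myf5, Pax7 and Id3 was 6560 and 7753 in scrambled, 14929 and 15181 in BAF250A and 12899 and 21874 in BRD9 cells, with 1 marker higher and 1 lower after BAF250A knockdown. The fibroblast and tendon sum without Col1a1 was 7806 and 10477 in scrambled, 28324 and 27726 in BAF250A and 23392 and 30018 in BRD9 cells. Both knockdowns were thus high. Most of the sum in BAF250A cells was Pdgfrb. After BAF250A knockdown 4 of 7 markers were called higher, while Scx and Dcn were not called. In the wider tendon and fibroblast list 8 of 23 tested genes rose (34.8%) and 2 fell (8.70%), against 11.2% and 17.5% of all genes. The smooth muscle sum without Acta2 was 3179 and 3557 in scrambled, 37108 and 42123 in BAF250A and 4215 and 15380 in BRD9 cells. Osteoblast markers summed to 2462 and 1271 in scrambled against 2405 and 2260 in BAF250A cells with 1 marker lower, and adipocyte markers to 96.5 and 101.5 against 254.6 and 156.5 with none called, and the defining genes Ibsp and Adipoq had no read. Blood markers summed to 134.6 and 188.3 in scrambled and 19.97 and 31.05 in BAF250A libraries. Whether other cells had a part in the fibroblast and smooth muscle gains was not tested.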

How the data were processed

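RNA-seq libraries of 3 groups, 2 per group, were analysed from the tables the authors deposited. Per the submitters' processing notes, the authors used HISAT, StringTie, Bowtie, RSEM and DESeq2 with the mm10 build, with no versions or order given. Per the file headers, each table holds for every gene the mean normalized count over 4 libraries (the authors' signal value), the log2 fold change, its SE, the Wald statistic (a score) and the raw and adjusted p-value that the authors deposited. The tables do not name the numerator of the fold change. Its sign was set by Arid1a and checked on genes with a mean below 3, of which 4076 were solved in both deposited tables, as the side whose reads both tables share. The threshold of a call was 0.05 on the deposited adjusted p. Strand use, counting rules and RNA selection are not given in the sources used here.

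The tables hold no counts per library, which the design had allowed for. Reads per library were recovered as the whole numbers that give the deposited mean, fold change and SE together. Over 3680 genes (100%) the recovered reads returned the deposited fold change within 0.001 log2. On simulated data 182 of 182 genes of lower and 200 of 200 of higher mean were recovered, with 0 wrong. BRD9 libraries were put on the scale of the BAF250A table through the shared scrambled libraries. The recovered reads ranged from 27755177 to 45317669 per library, and 82 genes were not recovered. Of the tables' value columns, 0 were left unused for lack of a sample.

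Limma 3.58.1 (R 4.3.3) was fitted with a trend to log2(normalized count + 1) over genes with a mean of 10 or more. This and its versions without each library were chosen after seeing the data. The results were also computed with Bonferroni adjustment, other filters on the mean, re-centring, a Wald statistic divided by its robust spread, genes with at most 10% of 31-base words shared, an absolute log2 fold change of at least 2, and a promoter window of 150 bases. Floors for genes at 0 are 3 reads over the group and cover counting error only.

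The members and the 46 lists were chosen with earlier results of these data known. Named genes are the target, up to 6 called members per list and direction with a mean of 100 or more, defining members, the 25 largest changes each way, the 15 most abundant called and 5 uncalled genes, and motif-bearing members. Some genes that this rule also names are summarised by their lists, and some are not reported here. Of 46 lists, 3 symbols matched no gene. Promoters (RefSeq, GRCm38.p6) were available for 12106 genes tested. Python 3.11.15 with numpy 2.4.6, pandas 2.3.3, scipy 1.17.1, numba 0.67.0 and matplotlib 3.10.9 was used.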

Additional observations from a re-analysis of the deposited data

How the results depend on the processing

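Of all genes, 1844 were called higher and 2885 lower. Bonferroni adjustment gave 553 and 1012, the Wald statistic scaled to its robust spread 225 and 487, an absolute log2 fold change of at least 2 gave 841 higher, a mean of at least 100 gave 1665 lower, and genes with little shared sequence, with p re-adjusted over them, 1452 lower. With limma 1465 were higher and 2266 lower, and leaving out 1 library gave 494 to 4302 higher (4302 without scrambled library 1, 3129 without scrambled library 2, 494 and 508 without BAF250A library 1 and 2) and 1536 to 3898 lower (1593 and 1536 without BAF250A library 1 and 2). A group reduced to 1 library is assumed to vary like the other. Limma called 3613 of the 4471 calls it could test (80.8%).

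Under Bonferroni adjustment the counts fell to 10 of 20 for thin filament, 12 of 24 for calcium handling, 16 of 31 for matrix glycoproteins, 8 of 18 for cholesterol, 14 of 23 for glycolysis and hypoxia, and 1 of 17 for mitosis. Scaled Wald counts were 15 for thick filament, 5, 6, 3 for fibrillar collagens, 9, 41 for interferon effectors, 2, 7 and 0, in the same order. With little shared sequence, thick filament gave 15 and interferon effectors 37. An absolute log2 fold change of at least 2 left 10 cholesterol, 15 glycolysis and 1 mitotic gene, and limma called 4 fibrillar collagens and 11 mitotic genes. Leaving out 1 library gave 20 to 24 thick filament, 10 to 19 thin filament, 9 to 27 calcium, 2 to 5 fibrillar collagen, 12 to 38 matrix, 51 to 68 interferon, 3 to 25 cholesterol, 10 to 24 glycolysis and 0 to 39 mitotic genes (33 without scrambled library 2).

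The difference from BRD9 knockdown was called in 90 genes higher and 324 lower, in 13 and 110 with Bonferroni adjustment and in 851 and 938 with limma. The Arid1a change of -1.95 missed the threshold under Bonferroni adjustment and the scaled Wald statistic, and the minimum of 2. Re-centring moved it to -1.78 and -2.04, and without 1 library limma gave -2.43 to -1.42 (-2.10 and -1.75 without BAF250A library 1 and 2). The causes were not tested beyond the smaller numbers of genes or libraries. None of 415 named genes reversed under the alternatives run, but settings that reuse the deposited fold change could not reverse its sign. Of the 415, 216 were weaker with the scaled Wald statistic and 127 with Bonferroni adjustment. Limma with all 4 libraries gave 32 weaker and 1 stronger. Motif shares in 150 bases were 55.9% for the interferon response element core, 28.6% for CAGCTG, 10.0% for MEF2 and 8.57% for CArG boxes. No paired analysis was possible because the library letters could not be recovered. edgeR and DESeq2 refits were not run. The median SE of 0.481 limits what 2 libraries per group can show.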

Other observations

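Of the amino acid, stress and unfolded protein response list, 50 members were tested, of which 9 rose and 5 fell in the authors' deposited table for BAF250A knockdown, and limma against BRD9 called 9 of 49 higher and 1 lower. Against scrambled, limma called 7 higher with all 4 libraries, 2 and 3 without BAF250A library 1 and 2, and 16 and 18 without scrambled library 1 and 2. It called 5 lower with all 4, 2 and 1 without BAF250A library 1 and 2, and 10 and 6 without scrambled library 1 and 2. Asns, asparagine synthetase, was 5312 and 8591 in scrambled, 21582 and 23187 in BAF250A and 13354 and 7654 in BRD9 libraries, and Vldlr, a lipoprotein receptor, 55.9 and 22.9 in scrambled, 2558 and 2530.4 in BAF250A and 779 and 599 in BRD9 libraries. Atf3, a stress-induced transcription factor, was 1661 and 2625 in scrambled, 242 and 173 in BAF250A and 333 and 185 in BRD9 libraries. The first pair of genes was highest in the BAF250A pair and Atf3 was highest in the scrambled pair.

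Of 26 tested imprinted genes 5 rose (19.2%) and 4 fell (15.4%), against 11.2% and 17.5% of all genes. The BRD9 table called 4 of 25 higher and 3 lower. Ndn, necdin, was 14 and 18.3 in scrambled, 202 and 233 in BAF250A and 150.2 and 330.2 in BRD9 libraries, and Mest, a mesoderm-specific hydrolase gene, 763 and 364 in scrambled, 4459 and 4066 in BAF250A and 3053 and 10660 in BRD9 libraries. The growth factor Igf2 was 4732 and 3324 in scrambled, 20331 and 18476 in BAF250A and 29696 and 12818 in BRD9 libraries. Igf2 shares over 10% of its 31-base words with another gene, so its counts are uncertain to that extent. All 3 were higher than scrambled in the authors' deposited table, by 3.63, 2.84 and 2.22 log2 units.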
